A study of Caenorhabditis elegans with 2 samples.

Results

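The large subunit of the cytosolic ribosome carries the peptidyl transferase centre, the tunnel through which the growing chain leaves and the flexible stalk that meets the elongation factors. Its proteins are made in every cell, mostly from single-copy genes that RNA polymerase II transcribes, and they are needed in step with the ribosomal RNAs. In *Caenorhabditis elegans* these genes are called rpl- for most proteins and rla- for the acidic stalk proteins. The genes described here are the 50 protein-coding genes of the Ensembl annotation whose symbol begins with rpl- or rla-, of 19973 protein-coding genes on the nuclear chromosomes. The rule that picks them uses the name and no measured value, but it was chosen with earlier results of these data known. A gene is called bound when the 5′ end of its gene record had a peak summit no more than 1000 bp away. The word describes position only, and whether these peaks need the tagged protein was not tested.

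Chromatin was recovered with an antibody to GFP (the labels also name vab-7 in the antibody field) from whole *C. elegans* at the fourth larval stage, 47 hours of age, in 1 group of 2 biological replicates. The worms were strain RW12267, with the allele st12267[vab-7::TY1::EGFP::3xFLAG] on chromosome III, made by CRISPR insertion at the vab-7 locus, and all had been synchronised by starvation as first-stage larvae after bleaching. VAB-7 is a homeodomain transcription factor of the Even-skipped class, known for posterior patterning and for the identity of DB motor neurons, so it is known from a limited set of cells while the chromatin came from whole animals. Signal from few cells and weak signal from many cells cannot be told apart in such material, and a control experiment that the labels name was not analysed here.

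Peaks were given as lists, each named for the irreproducible discovery rate (IDR), a measure of how consistently a peak ranks between replicates or between parts of the reads. The series list of 1815 peaks decides which genes are bound. A conservative list held 1732 peaks, the list of replicate 1 held 1014 and that of replicate 2 held 1119. The signal of a peak is the authors' own value with no stated normalization, so it is read here only within a list. The series list has a median signal of 105.3 and a highest signal of 697.3. The number of reads is unknown.

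The sequences under the 4 strongest summits near these genes are shown, picked by their signal. Of the short words described further on, only GCGTGT was present at all 4 summits. All lay upstream of their gene, outside annotated exons, and each run covers 50 bp on either side of the summit. They were read from the RefSeq genome sequence of WBcel235 (ce11 coordinates) on the strand of the gene. Capitals mark on either strand the word TACGGT, the word GCGTGT, and the words GGGTCT and GGTCTC, which overlap as GGGTCTC where both are present.
rpl-3, chrIII:3867533-3867633, plus strand: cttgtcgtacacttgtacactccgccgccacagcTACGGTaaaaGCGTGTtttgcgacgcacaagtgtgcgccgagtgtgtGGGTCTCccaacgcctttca
rpl-15, chrIV:654883-654983, minus strand: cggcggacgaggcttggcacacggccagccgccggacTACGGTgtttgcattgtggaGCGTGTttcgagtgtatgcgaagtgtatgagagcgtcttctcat
rpl-20, chrIV:4750037-4750137, minus strand: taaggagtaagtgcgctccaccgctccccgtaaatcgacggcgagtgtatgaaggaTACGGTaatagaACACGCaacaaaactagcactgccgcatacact
rpl-35, chrIII:7854640-7854740, plus strand: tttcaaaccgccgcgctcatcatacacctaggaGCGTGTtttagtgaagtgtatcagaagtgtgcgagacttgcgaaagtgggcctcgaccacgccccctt

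Of the 50 large subunit genes, 29 were bound in the series list (58%), and 21 were not. Over all protein-coding genes, 1099 of 19973 were bound (5.5%). The conservative list made 21 genes bound, where all genes gave 5.13%. With the list of replicate 1 alone 17 were bound, against 3.1% of all genes, and with that of replicate 2 alone 15, against 3.44%. In the lists of both replicates 12 of the 50 were bound, which is 24%, against 2.2% of all genes. The share was thus several times that of all genes in each of these lists, while the number of genes differed by list. There was 1 group only and genes are not replicates, so no test was run on these shares. With other limits 24 genes were bound within 500 bp (3.74% of all genes) and 29 within 2000 bp (8.15%). Counting the 5′ end of any transcript gave 29 genes (6.03%), counting any part of a peak gave 29 (5.95%), and leaving out summits at tRNA, snoRNA or snRNA genes gave 28 (4.62%). Keeping the peaks at or above the median signal gave 13 genes (2.89%), and dropping the summits of signal below 20 gave 29 (5.49%).

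**Figure D1:**
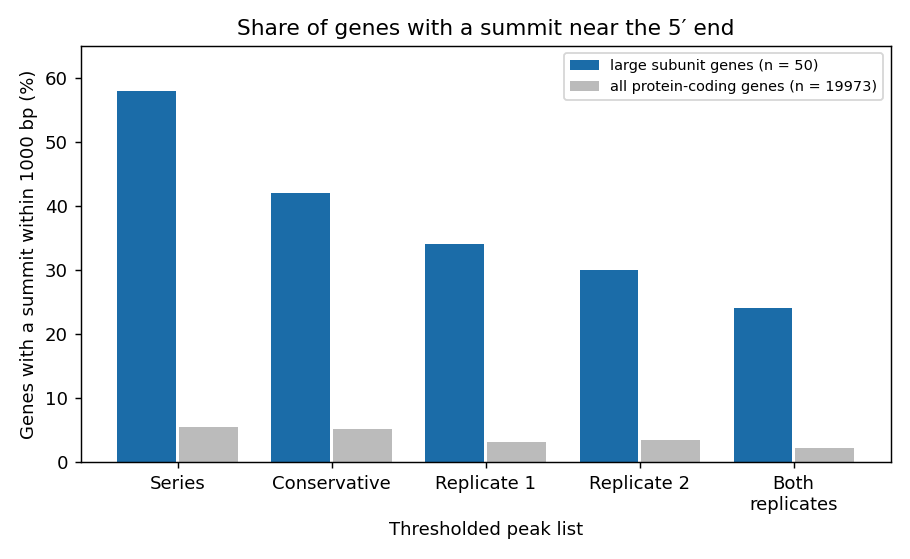
The bars give the percentage of genes bound in each thresholded peak list (x axis), for the 50 large subunit genes in blue and all 19973 protein-coding genes in grey. The blue bars fall from 58% in the series list to 24% for genes bound in the lists of both replicates, and the grey bars from 5.5% to 2.2%.

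A total of 11 genes were bound in all 4 thresholded lists: rpl-3, rpl-7A, rpl-12, rpl-15, rpl-20, rpl-23, rpl-24.2, rpl-35, rpl-41.1, rpl-41.2 and rpl-43. A further 13 were bound in the series list and in neither replicate's own list, among them rpl-4, rpl-7, rpl-13, rpl-22 and rpl-39. Shares over all protein-coding genes are not given for these or the other combinations of lists in this paragraph. The gene counts by combination thus describe the large subunit genes only. Taken by the nearest peak of each gene, 10 of the 29 overlapped a peak of both replicates (34.5%), against 37.4% of the nearest summits of all bound genes, and 16 overlapped a peak of neither (55.2%), against 31.3%. The large subunit genes were thus near the other bound genes in the first share and above them in the second. The peaks in neither list had signals from 61.48 to 121.6, and 13 of the 29 nearest peaks ranked in the last 25% of the series list. The genes rpl-16, rpl-31 and rpl-38 were bound in the series list and that of replicate 1, and rpl-1 and rpl-27 in the series list and that of replicate 2. At rpl-1 the summit of replicate 2 was at -181 bp and that of the series list at 387 bp, so the lists name different places. Going the other way, 4 genes unbound in the series list were bound in a replicate's list: rla-1 and rpl-32 in replicate 1, rpl-9 in replicate 2 and rpl-11.2 in both. The other 17 genes had no summit within 1000 bp in any of the 4 lists. These were rla-0, rla-2, rpl-2, rpl-5, rpl-6, rpl-10, rpl-17, rpl-18, rpl-19, rpl-21, rpl-25.1, rpl-25.2, rpl-33, rpl-34, rpl-36.A, rpl-37 and rpl-42.

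**Figure D2:**
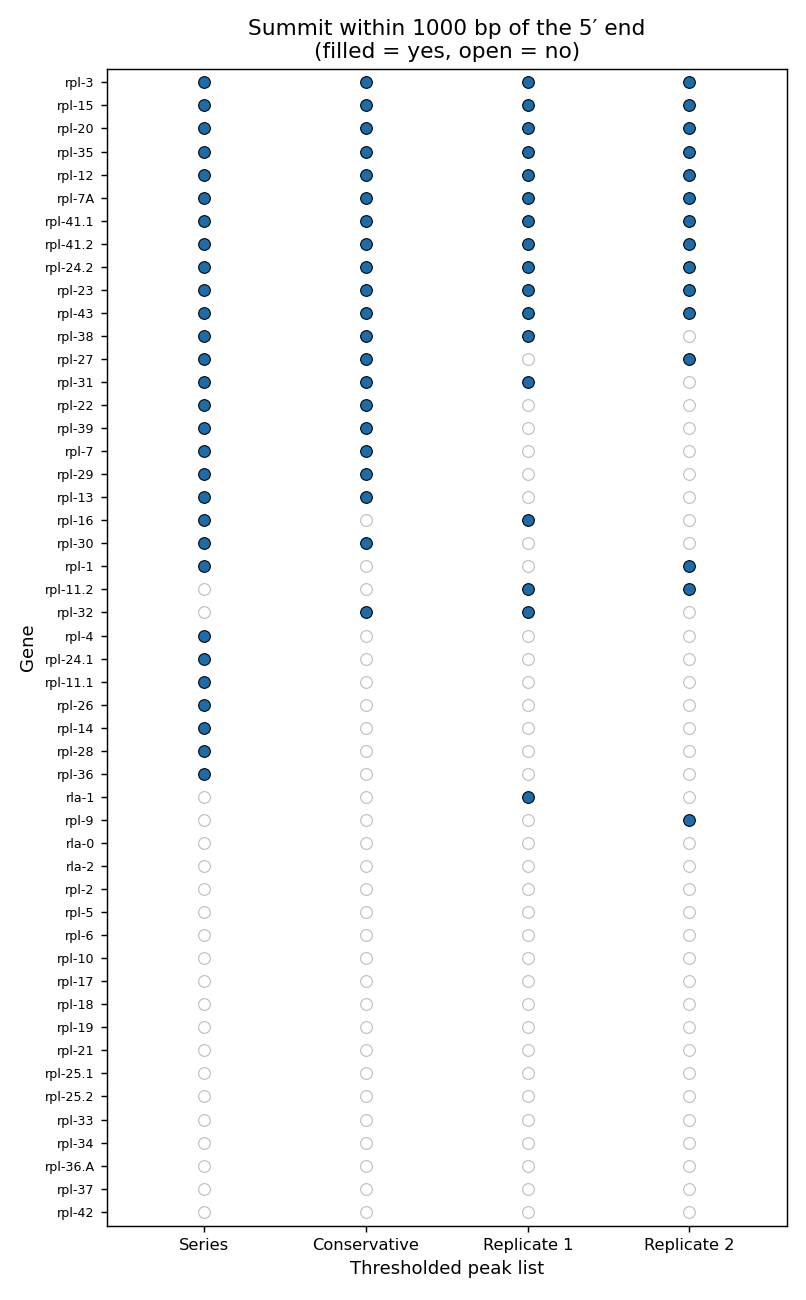
Each row is 1 of the 50 large subunit genes and each column a thresholded peak list. Filled circles mark genes that were bound. The 11 genes at the top are filled in all 4 columns and the 17 at the bottom in none.

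The genes outside the stalk, the 5S particle and the tunnel are grouped here as the core, 33 of the 50, and their nearest peaks ran from the strongest of the series list down to a signal of 61.48. The peak of rpl-3 (WBGene00004414, chromosome III, 3867854 to 3869587, plus strand), which encodes a protein near the peptidyl transferase centre, lay 271 bp upstream and had a signal of 697.3, the highest of the series list. It ranked 2 of the 1014 peaks of replicate 1 (signal 344.5, at -295 bp) and 1 of the 1119 of replicate 2 (362.2, at -270 bp). Both replicates thus placed this peak at the head of their thresholded lists. In their longer lists from before the threshold, which reach signals of 1790 and 1862, it ranked 5 in replicate 1 and 3 in replicate 2. The peak of rpl-15, 357 bp upstream, had a signal of 477.0 and ranked 9 in the series list, 11 in replicate 1 (signal 266.2) and 15 in replicate 2 (205.7). The peak of rpl-20, 309 bp upstream, had 443.3 and ranked 13, 10 and 30 in the same lists, with 267.2 in replicate 1 and 174.7 in replicate 2. That of rpl-7A, only 58 bp upstream, had 251.0 and ranked 120 in the series list. Its place in the replicates' lists differed more, at 58 of 1014 in replicate 1 (signal 167.3) and 310 of 1119 in replicate 2 (87.78).

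Other core genes had lower peaks. The gene rpl-23, whose product lies at the interface with the small subunit, had a peak of signal 123.0 at -299 bp that ranked 689 in the series list, 790 in replicate 1 (signal 64.61) and 619 in replicate 2 (61.94). The summit positions were -297 and -299 bp in the replicates, so the place was the same within a few bp. The gene rpl-22 had a peak of similar signal, 121.6 at -234 bp, but it was in neither replicate's thresholded list. The gene rpl-7 had a signal of 102.8 at -279 bp and was likewise in neither. Of the 33 core genes 21 were bound, and 8 of these had a nearest peak that overlapped peaks of both replicates. This count takes in rpl-24.2, which is grouped here by its symbol.

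Among the genes of the peptide exit tunnel and its rim, 6 of 10 were bound. The gene rpl-35, whose protein sits at the tunnel exit beside the docking site of nascent-chain factors, had a signal of 432.9 at -444 bp and ranked 17 in the series list, 15 in replicate 1 (signal 242.0) and 23 in replicate 2 (185.8). It was the only one of the 10 whose peak overlapped peaks of both replicates. The gene rpl-39, for a small protein that lines the tunnel, had a signal of 103.8 at -218 bp and a second summit of 77.86 at -724 bp, in neither replicate's list. The gene rpl-38 had 93.76 at -336 bp, in the list of replicate 1 only. The gene rpl-4, whose protein reaches into the tunnel, had 77.2 at -338 bp. The genes rpl-26 and rpl-31 had their nearest summits downstream of the 5′ end, at 950 and 215 bp, with signals of 74.88 and 79.08. The unbound genes of this group were rpl-17, rpl-19 and both copies of rpl-25.

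The stalk was the role group with the smallest share. Only rpl-12, whose protein forms the base of the stalk, was bound, with its summit 19 bp upstream and a signal of 303.4, rank 59 in the series list, 74 in replicate 1 (signal 159.7) and 62 in replicate 2 (141.5). The 3 genes of the stalk itself, rla-0, rla-1 and rla-2, which encode P0, P1 and P2, were unbound. The summit nearest to rla-0 lay 2206 bp downstream of its 5′ end (signal 88.62), while rla-1 had a summit at 154 bp in the list of replicate 1 (signal 47.49, rank 975 of 1014) and none in the other 3 lists. With 4 genes in the group, these are single observations.

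The genes with 2 copies did not behave alike in every pair. In the particle that holds the 5S RNA, rpl-5 was unbound, rpl-11.1 on chromosome V was bound and rpl-11.2 on the X chromosome was not. The summit that makes rpl-11.1 bound lay 844 bp downstream of its 5′ end, past the end of the gene, with a signal of 75.14, and was in neither replicate's list. The gene rpl-11.2 had the reverse pattern. Replicate 1 listed a peak at -425 bp (signal 62.92, rank 822 of 1014) and replicate 2 a peak at -387 bp (52.59, rank 797 of 1119), each with the top score of 1000. Neither the series list nor the longer pooled ranked list of 88007 peaks had a summit at that place. Of 691 peaks of replicate 1 with a summit of replicate 2 within 150 bp, 5 had no pooled ranked summit within that distance, and the peak of rpl-11.2 was 1 of them. The rule thus separates the copies in a way that the replicates' own lists turn around.
The sequences at these places are shown for that contrast, with 50 bp on either side of the summit, on the strand of the gene, and with the same words in capitals.
rpl-11.1, chrV:3585170-3585270, minus strand, summit of the series list: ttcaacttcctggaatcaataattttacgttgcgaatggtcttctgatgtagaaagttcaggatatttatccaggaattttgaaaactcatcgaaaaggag
rpl-11.2, chrX:2242993-2243093, minus strand, summit of replicate 1: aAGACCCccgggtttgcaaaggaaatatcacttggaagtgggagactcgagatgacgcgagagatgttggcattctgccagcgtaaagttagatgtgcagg
The run at rpl-11.1 has a GC content of 34.7% and none of the 4 words, and that at rpl-11.2 has 50.5% and 1 word.

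The genes rpl-41.1 and rpl-41.2 lie next to each other on chromosome I and share a summit of signal 171.0. It stands 272 bp upstream of rpl-41.2 and 830 bp downstream of the 5′ end of rpl-41.1, so the nearer gene is rpl-41.2. It was in both replicates' lists, at rank 470 of replicate 1 (signal 86.53) and 432 of replicate 2 (75.15). The gene rpl-24.2 is the counterpart of a factor that assembles the large subunit in yeast and humans. It had a signal of 132.9 at -185 bp, in both replicates' lists, with signals of 78.89 and 57.93 and ranks of 569 and 673, and its summit lay inside the neighbouring gene C03D6.1. Its relative rpl-24.1 had a signal of 75.15 at 262 bp, in an intron and within 200 bp of the snoRNA gene D1007.20, and was in neither replicate's list. Both copies of rpl-25, which encode the protein at the docking site of the tunnel exit, were unbound. Despite their symbols, rpl-36 and rpl-36.A encode unrelated proteins, as do rpl-7 and rpl-7A. Of these rpl-36 was bound, by a summit 984 bp upstream (signal 61.48), rpl-36.A was unbound, and rpl-7 and rpl-7A were both bound.

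The bound genes fell on both sides of the 5′ end, and the median signal was lower on the downstream side. In 18 of the 29 genes the nearest summit lay upstream, where 4.27% of all protein-coding genes had theirs. In the other 11 it lay downstream, where 1.24% of all genes had theirs. Among all 1099 bound genes the downstream share was 22.5%, against 37.9% of the 29. The members' downstream count fell to 6 of 21 bound genes in the conservative list, 4 of 17 in that of replicate 1 and 2 of 15 in that of replicate 2. The share over all genes was taken in the series list only. Upstream summits had signals from 61.48 to 697.3 with a median of 122.3, and 9 of the 18 overlapped peaks of both replicates. Downstream summits had signals from 67.82 to 171.0 with a median of 75.14, and 1 of 11, the one that rpl-41.1 shares with rpl-41.2, overlapped both. The ranges overlapped, but 12 upstream and 1 downstream summit had a signal of 100 or more. In all bound genes the medians lay closer together, at 110.8 upstream and 90.47 downstream, with 39.8% and 29.1% overlapping both replicates. When the strongest summit of each gene was used in place of the nearest, 19 lay upstream and 10 downstream, with medians of 123.0 and 75.14.

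The 11 downstream summits lay in several kinds of sequence. Those of rpl-1, rpl-13 and rpl-27 were in coding exons of the gene, that of rpl-30 in an untranslated exon, and those of rpl-14, rpl-24.1 and rpl-31 in introns. Those of rpl-11.1, rpl-26, rpl-41.1 and rpl-43 lay past the end of the gene. The 7 summits inside genes had signals between 67.82 and 85.22, all below the series median of 105.3. These genes are short, with a median length of 684 bp for the bound genes, against 2027 bp for all protein-coding genes, so a window of 1000 bp takes in most of them and reaches beyond many. Whether gene length has a part in the downstream summits was not tested.

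**Figure D3:**
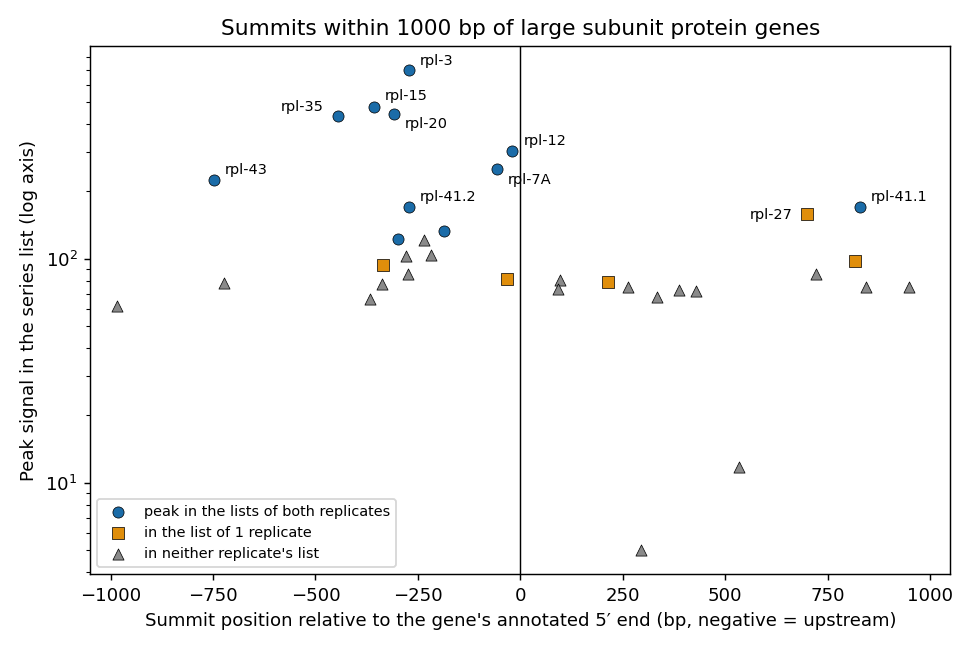
Each point is a summit within 1000 bp of a large subunit gene, with its position relative to the annotated 5′ end on the x axis (bp) and its signal in the series list on a log y axis, and the shape shows whether its peak overlaps peaks of both replicates, 1 or neither. Points in the list of exactly 1 replicate are squares. The points of signal above 200 all lie upstream, from rpl-3 at 697.3 to rpl-43 at 225.5, and those inside the ribosomal protein gene itself lie below 100. The summit at 171.0 appears at both rpl-41.1 and rpl-41.2.

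The positions upstream were not scattered evenly over the window. The median position of the nearest summit was -185 bp for the 29 bound genes and -210 bp for all bound genes. Between -450 and -180 bp, limits picked after the positions were seen, lay the summits of 14 of the 29 genes (48.3%), against 31.4% of all bound genes. A group nearer to the 5′ end was made up of rpl-12 (-19 bp), rpl-16 (-32 bp) and rpl-7A (-58 bp). Because trans-splicing replaces the first part of many worm messages, transcription can start upstream of the annotated end, and distances are to the annotation only. At the edge of the window, the nearest summits of rpl-11.1, rpl-26 and rpl-36 lay 844, 950 and 984 bp away. The closest unbound genes were rla-0 at 2206 bp, rpl-25.1 at 3071 bp and rpl-5 at 8491 bp, so widening the window to 2000 bp added no gene.

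There were 6 genes with 2 summits, rpl-14, rpl-27, rpl-30, rpl-31, rpl-39 and rpl-43. In rpl-43 the nearer summit, at 430 bp, had a signal of 71.76. The farther, at -747 bp, had 225.5 and was in both replicates' lists, with 119.2 in replicate 1 and 92.8 in replicate 2. This farther summit of rpl-43 lay closer to the 5′ end of its divergent partner, Y48B6A.1. The nearer summit of rpl-27, at 98 bp in a coding exon, had 80.15, and the farther, at 701 bp, had 158.6 and was in the list of replicate 2. That farther summit lay closer to the 5′ end of egl-30, a G protein alpha subunit gene. In rpl-14 and rpl-30 the second summit had a signal of 11.75 and 5.005, among the 49 summits of the series list below 20, yet scores of 903 and 990. Leaving out such summits changed no call, since both genes also had a summit of 67.82 and 73.75.

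Large subunit genes often share their upstream region with a gene transcribed the other way. A divergent partner, defined as a protein-coding gene on the other strand with its 5′ end within 1000 bp upstream, was present for 29 of the 50 genes (58%), against 17.7% of all protein-coding genes. It was present for 18 of the 29 bound genes and 11 of the 21 unbound ones (62.1% and 52.4%). All 10 partners of the genes bound upstream were bound themselves. A partner whose 5′ end is within 1000 bp of the same summit is bound by the rule, so this count is no separate observation. For the genes bound downstream 4 of 8 partners were bound, and for unbound genes 0 of 11. An unbound gene has no summit within 1000 bp, a window that holds its partner's 5′ end. The 0 is thus also set in large part by the rule. Among all protein-coding genes 414 of 3539 partners were bound, and among all bound genes 386 of 414. At rpl-12 the summit 19 bp upstream stood at -374 bp from lin-54, so the large subunit gene was by far the nearer. The gene lin-54 encodes a DNA-binding subunit of the DREAM complex. At rpl-7A the summit stood at -196 bp from set-21.

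In 8 of the 29 cases another protein-coding 5′ end was nearer to the summit. The summit of rpl-20 lay 153 bp upstream of Y17G9B.5, that of rpl-22 203 bp upstream of ify-1, the securin gene, that of rpl-4 123 bp upstream of B0041.8 and that of rpl-28 152 bp upstream of mrpl-49, which encodes a protein of the mitochondrial ribosome. The nearest summit of rpl-26 lay 111 bp upstream of suf-1 and the nearer of rpl-43 lay 44 bp upstream of xrn-2, an exonuclease gene. The summit of rpl-36 was in the gene of a small subunit protein, rps-14, 321 bp downstream of its 5′ end, and that of rpl-41.1 belonged to the shared peak with rpl-41.2. The member was the nearest gene in the other 21 cases, 72.4%, about the share among all bound genes (74.6%). With summits counted only for the nearest gene, 21 of the 50 were bound, against 4.12% of all genes.

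Some summits were shared with genes of the small subunit. The summit in the intron of rpl-24.1 lay 872 bp upstream of rps-10, the summit of rpl-36 lay inside rps-14, and rpl-39 shared its nearer summit with rps-30, at -281 bp from that gene, while its farther summit lay inside rps-30. In all, 21 of the 29 bound genes shared their nearest summit with at least 1 other protein-coding gene, and 8 had it alone (27.6%, against 49% of all bound genes). The 8 were rpl-3, rpl-11.1, rpl-13, rpl-14, rpl-16, rpl-24.2, rpl-35 and rpl-38. The 29 genes had 28 different nearest summits, so sharing between large subunit genes was limited to rpl-41.1 and rpl-41.2.

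A gene that follows another closely on the same strand may lie in an operon, where its own 5′ end need not be a start of transcription. Such a neighbour within 500 bp upstream was present for 2 of the 29 bound genes, rpl-16 (105 bp after lias-1) and rpl-27 (119 bp after C53H9.2), and for 3 of the 21 unbound ones, rla-1, rpl-19 and rpl-25.1. The share over all 50 was 10%, against 18.1% of all protein-coding genes. Small nucleolar RNA genes lay inside 6 of the 29 bound and 2 of the 21 unbound genes, 8 of the 50. They lay inside 192 of all 19973 protein-coding genes and 46 of the 1099 bound ones. Only 1 of the bound genes, rpl-24.1, had its nearest summit within 200 bp of a tRNA, snoRNA or snRNA gene.

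Bound and unbound genes had similar medians for several features, which were not tested. The promoter window, from 250 bp before to 50 bp after the 5′ end, had a median GC content of 33.3% in bound and 32.7% in unbound genes, and 34.3% in all protein-coding genes. The gap to the next gene upstream had medians of 543 and 599 bp, against 937.0 bp for all genes, and gene lengths medians of 684 and 791 bp. Chromosome I held 17 of the 50 genes, of which 12 were bound, against 8.41% of all protein-coding genes there. Chromosome II had 3 of 9 bound (5.22% of all), III 5 of 9 (8.3%), IV 5 of 8 (4.75%) and V 4 of 5 (3.3%). The X chromosome had 0 of 2, rpl-11.2 and rpl-25.1, against 5.02%.

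The lists below the threshold give a value for nearly every gene in each replicate. All 50 genes had a summit within 1000 bp in the pooled ranked list and in the ranked list of replicate 1, where 68% and 66.6% of all genes did, and 49 had one in that of replicate 2 (59.9% of all genes), the exception being rpl-42. The longest of these lists holds 88007 peaks, so a summit in them does not make a gene bound. In replicate 1 the strongest such signal of the bound genes ran from 36.24 to 344.5 with a median of 63.23, and that of the unbound genes from 18.2 to 64.83 with a median of 34.98. In replicate 2 the ranges were 23.95 to 362.2 (median 44.26) and 8.594 to 52.59 (median 24.54). Bound and unbound genes overlapped in both replicates. The series list draws on both replicates, so their higher values are a description. The unbound large subunit genes had medians above those of all unbound protein-coding genes, which were 24.02 in replicate 1 and 16.62 in replicate 2.

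The strongest ranked summits of the replicates lay within 100 bp of each other in 22 of the 29 bound genes and in 8 of the 20 unbound genes with a summit in both lists. Among all protein-coding genes with both, the count was 3497 of 9947 (35.2%), and among the unbound ones 2578 of 8857 (29.1%). Most bound genes of any kind thus had summits this close, so the trait is not particular to the large subunit. The series list is itself picked for consistent ranks, so high agreement in bound genes is a description. The 8 unbound large subunit genes were rla-0, rpl-9, rpl-11.2, rpl-25.1, rpl-25.2, rpl-32, rpl-36.A and rpl-37, of which 5 were in no thresholded list. At rpl-37 the summits were at 212 and 220 bp, with signals of 28.88 and 11.14. At rla-1, by contrast, they were far apart, at 154 and -743 bp. At rpl-9 replicate 2 had a listed summit at -240 bp (signal 50.25) and replicate 1 a ranked one at -218 bp (32.18) that missed its threshold, with a score of 49. At rpl-32 replicate 1 had a listed summit at -461 bp (64.83) and replicate 2 a ranked one at -413 bp (26.9). The conservative list counted that place as a peak with a signal of 90.27, at -458 bp, and the series list did not. At the low end, the strongest signals of rpl-34 were 25.34 and 8.594.

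**Figure D4:**
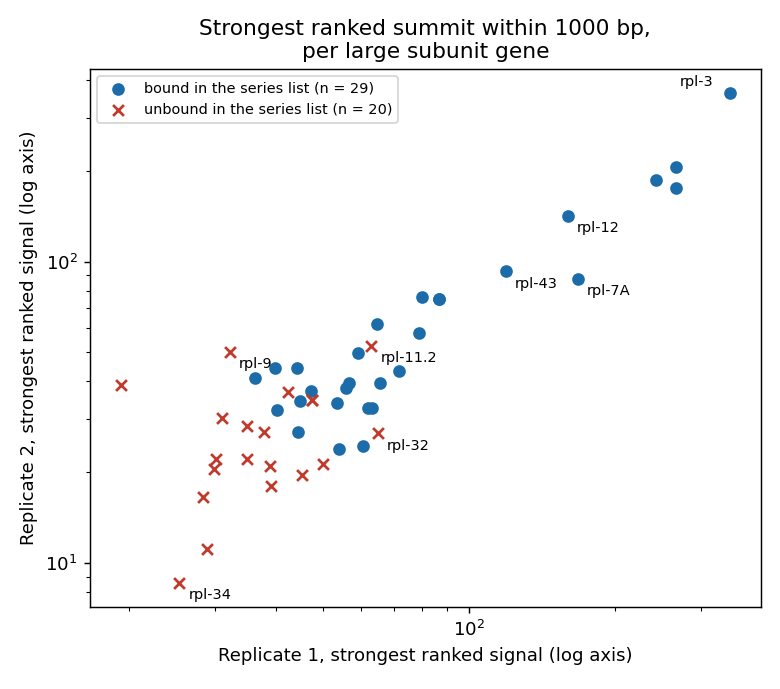
Each point is a large subunit gene, with the strongest signal within 1000 bp of its 5′ end in the ranked list of replicate 1 on the x axis and of replicate 2 on the y axis, both log axes with no stated normalization. Blue points are the 29 genes bound in the series list and red crosses 20 of the 21 unbound genes (rpl-42 had no summit in replicate 2). The unbound rpl-11.2, at 62.92 and 52.59, stands among the bound genes.

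The words in the sequences shown above were picked after their counts were seen. Over the 34 different summits of the 29 genes, each word of 6 letters was counted on both strands within 50 bp of the summit. The 4 of 2080 words with the largest excess in share over the 1761 summits of neither subunit were taken, so the members' counts are a description. GGGTCT was present at 10 of the 34 summits (29.4%), against 6.59% of those 1761, and GGTCTC at 10, against 8.57%. GCGTGT was present at 9, against 6.59%, and TACGGT at 8 (23.5%), against 4.26%. In the promoters of the 21 unbound genes GGGTCT was present in 5 (5.51% of all promoters) and GGTCTC in 4 (8.0%). GCGTGT and TACGGT were each in 1 of the 21 (6.44% and 8.11% of all promoters). GGGTCT and GGTCTC were thus not confined to bound genes. These promoter windows, from 250 bp before to 50 bp after the 5′ end, are not the windows searched at summits. Some member summits with these words, such as that of rpl-3, lay farther upstream than a promoter window reaches, while that of rpl-22 lay within it. Counts in the bound genes' own promoter windows are not given. The low counts of GCGTGT and TACGGT therefore cannot be set against those at summits. The 20 summits of small subunit genes that are not also summits of large subunit genes had no part in the choice. There TACGGT was present at 4 (20%), those of rps-1, rps-7, rps-20 and rps-23, GCGTGT at 1, and GGGTCT and GGTCTC at 0. TACGGT was thus the 1 word of the 4 that was also frequent at the other subunit's summits. Of the 34 summits 19 had at least 1 of the words, and rpl-3 had all 4. TACGGT stood at the summits of rpl-3, rpl-15, rpl-20, rpl-43, rpl-22, rpl-7, rpl-38 and rpl-29, each upstream of its gene.

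Words known from other settings were also counted. TAATTA and TAATGA, cores that homeodomains bind, were each present at 1 of the 34 summits, against 1.65% and 2.7% of all 1815. At the same 34 summits TATAAA was present at 1 (3.8% of all), TTTCAG at 4 (6.78%), GCGCGC at 3 (8.98%), GGTTCG at 1 (14.4%) and CTGCGTCT at 0 (5.23%). The GC content in these windows was 50.5% at the median in both sets. In the promoter windows TAATTA was present in 3 of 29 bound and 5 of 21 unbound genes (15.5% of all promoters), and TAATGA in 6 and 9 (20%). TTTCAG, the consensus of the splice acceptor, was present in 25 of 29 bound and 13 of 21 unbound genes, against 51.7% of all promoters. TATAAA, the TATA box, was in 10 and 3 genes, against 37.9%. CTGCGTCT, a word reported from housekeeping promoters, and GGTTCG, part of the tRNA B box, were in none of the 50 promoter windows, where all promoters had 3.54% and 3.86%, and GCGCGC was in 2 bound and 2 unbound genes (3.58%). Both strands were searched and a match says only that the letters are there.

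Other genes of the translation pathway were counted by the same rule. Of the 32 small subunit genes 19 were bound (59.4%), 14 of them by a summit upstream, with rps-24 (369.1, at -350 bp), rps-28 (300.0, at -436 bp) and rps-19 (295.3, at -283 bp) the strongest. Their nearest summits had a median signal of 186.8 upstream and 77.86 downstream, the same order as in the large subunit. Of 6 genes of elongation factors 5 were bound, including eef-1A.1 (115.6, at -382 bp) and eef-2 (156.6, at 8 bp). Of 28 matched genes of ribosome assembly 5 were bound (17.9%), fib-1, the fibrillarin gene, pro-1, rbd-1, ruvb-1 and exos-8, with signals from 85.21 to 163.8. None of 4 genes of RNA polymerase I subunits was bound. These differences between lists were not tested.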

How the data were processed

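The data are ChIP-seq peak lists from 2 biological replicates. Per the labels, coordinates are on ce11. For the aligner, the peak caller and the number of reads, nothing is given in the sources used here. The authors' deposited lists give each peak a score of up to 1000 and a signal whose normalization is not stated. All 1815 peaks of the series list recur with the same score in 1 of the 2 ranked lists of the series, called here the pooled ranked list, and the conservative list matches the other. Genes came from Ensembl release 115 and sequences from RefSeq, both on WBcel235, and every peak lay within its chromosome lengths. A summit is the deposited offset added to the peak start. Peaks were shared between lists when they overlapped by at least 1 bp.

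Counts, medians and windows were computed in Python 3.11.15 with numpy 2.4.6, and the call was tested on simulated data. No statistical test was run. Every member is named at least once. By rule, fuller values go to the 12 strongest bound genes, those that share a summit, copies of a gene or symbols that differ by a letter, and the 3 genes on either side of the 1000 bp limit. Fuller values of other members, such as rpl-9, rpl-13, rpl-14, rpl-32, rpl-34, rpl-37 and rpl-38, were chosen after their values were seen. The members and lists were chosen with earlier results of these data known. Alternatives were the other lists, each replicate alone, other distances, 5′ ends and overlaps.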

Additional observations from a re-analysis of the deposited data

How the results depend on the processing

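The number of bound large subunit genes was 29, and 15 to 17 with either replicate alone, 13 with the stronger part of the series list (signal at or above the median), and 21 to 29 under the other 8 alternatives. The share of all protein-coding genes, 5.5%, was 3.1% to 3.44% with either replicate alone, 5.13% in the conservative list, 2.89% in the stronger part, 3.74% within 500 bp, 8.15% within 2000 bp, 6.03% with any transcript's 5′ end, 4.62% without summits at small RNA genes, 5.95% for any part of a peak and 4.12% for the nearest gene. The last, and leaving out signals below 20, were added after seeing the data. The median position of -185 bp was -295 to -270 bp with either replicate alone, -234 bp in the conservative list and -218 bp for the strongest summit. The 18 bound genes with a divergent partner were 7 to 8 with either replicate alone, 11 in the conservative list and 9 with a partner within 500 bp. The GC difference of bound minus unbound promoters, 0.667 percentage points, turned to -0.667 in the conservative list and ranged from -0.667 to 3.67 with either replicate alone, and the cause was not tested. The 10 bound genes supported by both replicates (34.5%, against 38.5% of all peaks of the series list) stayed at 10 under all 3 alternatives. No paired analysis was possible because there was only 1 group. Depth could not be assessed, since the lists hold no read counts.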
